A study of Ambystoma mexicanum with 44 samples.

Results

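SLIT2 is the gene of a secreted guidance ligand, and its mRNA was followed in the epidermis of axolotl limbs and flanks before and after injury. It was found as every probe set of the array table that the platform annotation names SLIT2, which was 1 probe set, axo10444-f_at, of 20080, and 1 gene of the 8639 named. SLIT2 was chosen by its level difference between limb and flank in these same arrays, so the limb and flank values are described below without a test. The changes over time and the comparison of denervated with innervated limbs use the same limb arrays and were tested, and they are not independent of that choice.

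Slit proteins are large secreted ligands that bind Robo receptors on the cell surface, with heparan sulfate chains as a co-factor. They are best known for repelling growing axons at the midline of the nervous system, and they also steer migrating cells and growing vessels. Robo receptors pass the signal to adaptor proteins inside the cell, and the actin cytoskeleton changes in response. Netrins, semaphorins and ephrins are the other classic families of guidance ligands.

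The 44 arrays held epidermis of aquatic axolotls (Ambystoma mexicanum) with the cells that stuck to it, in 11 groups of 4 biological replicates, and the RNA of each animal came from 2 pooled samples. Denervated limbs (days 1, 3 and 7) had the forelimb amputated above the elbow, the humerus trimmed and the brachial nerves cut. Innervated limbs (days 1, 3 and 7) had the same amputation with the nerves left in place, and flank wounds (days 1, 3 and 7) were made with a biopsy punch. Uninjured innervated limb skin and uninjured flank skin were the day 0 groups, and no denervated day 0 group is among the labels, so both limb series were set against the same 4 uninjured arrays. A level is the deposited log2 value, a difference is in log2 units with its SE, and each group mean has n = 4 and a SD. Probe sets were tested with limma over all 20035 that were not controls, and a change was called at a Benjamini-Hochberg adjusted p under 0.05.

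EMX2 and DLX6, homeobox genes of limb fields and appendages, were picked after their values were seen, so they are no independent check of the site labels. EMX2 averaged between 6.75 and 8.36 in the limb groups, against 4.10 to 4.23 in the flank groups, and DLX6 averaged between 6.73 and 7.96, against 5.25 to 5.77. Neither gene overlapped between limb and flank on any day. DLX6 is from a list of apical epidermis and limb bud signals with 8 measured genes. Of these, 1 was called higher and 0 lower in uninjured limb than in flank. In denervated limbs 3 were higher and 0 lower on each of days 1, 3 and 7. In innervated limbs 3 were higher and 1 lower at day 1, 3 and 0 at day 3, and 4 and 0 at day 7. Most of the 13 measured genes of the limb and body position list, which holds EMX2, were not called between limb and flank. In uninjured limb 1 was higher. At day 1, the calls were 1 higher and 1 lower in denervated limbs and 2 higher and 1 lower in innervated limbs. On days 3 and 7 they were 2 higher and 0 lower in either limb series. Over all probe sets, 4.35% were called in uninjured skin. The shares in denervated and innervated limbs were 2.33% and 4.93% at day 1. They were 6.33% and 6.24% at day 3, and 7.2% and 9.32% at day 7. KRT8, an epithelial keratin, had group means between 13.8 and 14.3, COL3A1, a collagen of dermal fibroblasts, between 12.5 and 14.3, and MYL1, a light chain of fast muscle myosin, between 3.58 and 13.3. Levels of different probe sets cannot be set against each other, so these values do not give the share of each cell type.

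SLIT2 rose on every day tested in amputated limbs, with or without the nerves, and was called higher in flank wounds on days 3 and 7. In denervated limbs it averaged 6.68 times the uninjured limb level at day 1, 21.9 times at day 3 and 23.8 times at day 7, and in innervated limbs 6.48, 17.4 and 24.5 times. In flank wounds it averaged 3.92 times the uninjured flank level at day 7. Denervated and innervated limbs differed by at most 0.33 in mean SLIT2 level on a day, and none of the days 1, 3 and 7 gave a call.

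**Figure D1:**
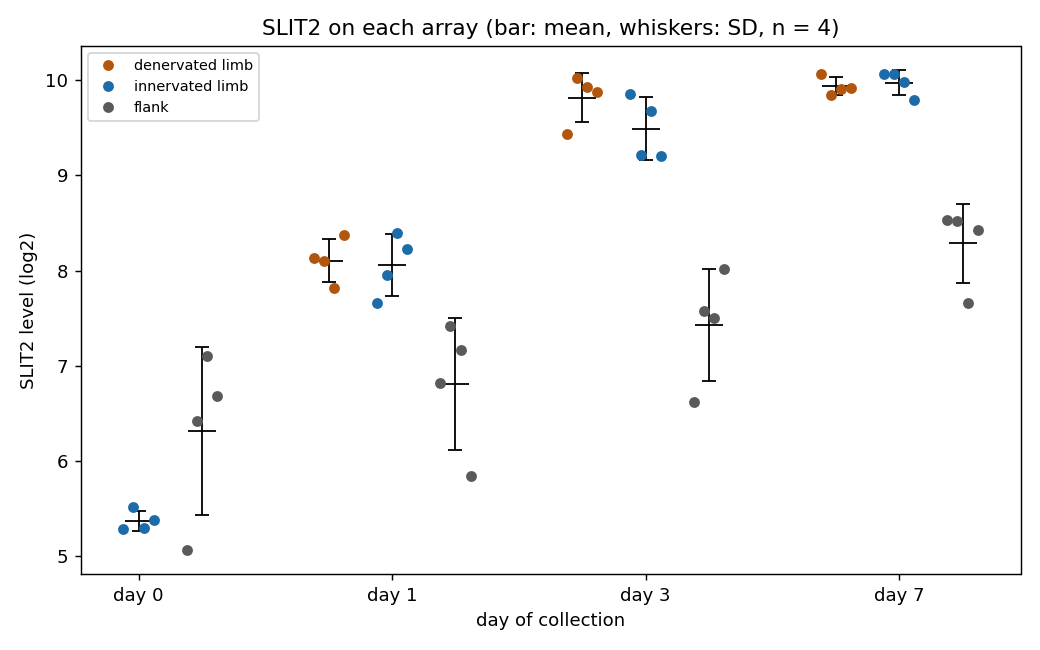
SLIT2 level (log2, vertical axis) on each of the 44 arrays by day of collection, with denervated limb, innervated limb and flank side by side; each point is an array, the bar is the mean and the whiskers are the SD of 4 arrays. From day 1 on, every limb array lies above every flank array of its day, and at day 0 the 4 innervated limb arrays sit within 5.28 to 5.51 while the flank arrays spread from 5.06 to 7.10.

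In denervated limbs SLIT2 had levels of 8.13, 8.10, 7.82 and 8.37 at day 1. At day 3 the denervated arrays read 9.44, 10.02, 9.93 and 9.88. At day 7 they read 10.07, 9.85, 9.91 and 9.92. All 4 day 3 values were above all 4 day 1 values, whereas the values of days 3 and 7 overlapped.

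In innervated limbs the uninjured arrays had SLIT2 levels of 5.28, 5.51, 5.29 and 5.38. At day 1 the levels were 7.66, 7.95, 8.40 and 8.23. At day 3 they were 9.86, 9.22, 9.68 and 9.20, and at day 7 they were 10.07, 10.07, 9.98 and 9.79. No day 1 value overlapped with day 0 or with day 3, and the day 7 array of 9.79 lay below the highest day 3 array.

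In flank skin the uninjured arrays had SLIT2 levels of 5.06, 6.42, 7.10 and 6.68. At day 1 the flank arrays read 6.82, 7.42, 7.16 and 5.84. At day 3 they read 6.62, 7.58, 7.50 and 8.02, and at day 7 they read 8.53, 8.52, 7.66 and 8.43. Neighbouring days overlapped throughout the flank series, and only the day 7 arrays lay wholly above the uninjured ones.

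By mean level the 11 groups ran as follows, with SDs. Uninjured innervated limb was lowest at 5.37 ± 0.107, followed by uninjured flank at 6.32 ± 0.882, flank day 1 at 6.81 ± 0.692 and flank day 3 at 7.43 ± 0.586. Innervated limb day 1 at 8.06 ± 0.325, denervated limb day 1 at 8.11 ± 0.225 and flank day 7 at 8.29 ± 0.419 lay close together. Innervated limb day 3 at 9.49 ± 0.332, denervated limb day 3 at 9.82 ± 0.258, denervated limb day 7 at 9.94 ± 0.0936 and innervated limb day 7 at 9.98 ± 0.132 were highest. Along this order the values of neighbouring groups overlapped in every case but 1, the step of 1.21 between innervated limb day 3 and flank day 7. The flank values of day 7 thus overlapped with those of both limb groups of day 1.

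The spread of SLIT2 within groups also differed between the sites. The flank SDs were large for the array, since between 1.91% (uninjured) and 6.01% (day 7) of all probe sets had a larger SD in the same flank group. In the limb groups that share lay between 9.69% (innervated day 3) and 77.6% (uninjured). The uninjured flank arrays differed most among themselves, with a range of 2.04 between replicates 1 and 3.

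Against uninjured innervated limb, SLIT2 was higher by 2.74 ± 0.301 in denervated limbs at day 1 (limma, adjusted p = 2.37e-09), when 34.2% of all probe sets were called. At denervated day 3 the difference was 4.45 (adjusted p = 2.9e-14, 26.4% of probe sets called), and at denervated day 7 it was 4.57 (adjusted p = 8.62e-15, 27% called), each with an SE of 0.301. In innervated limbs SLIT2 rose by 2.70 at day 1 (adjusted p = 3.33e-09, 36% called), by 4.13 at day 3 (adjusted p = 2.36e-13, 25.9% called) and by 4.61 at day 7 (adjusted p = 9.09e-15, 26.6% called). All 4 injured limb arrays lay above all 4 uninjured ones in each of these 6 comparisons. With at least 25.9% of probe sets called in each, a call alone was common, so the rank of the SLIT2 difference is given too. Counted from the largest rise, SLIT2 stood 141st, 29th and 28th of 20035 probe sets in denervated limbs on days 1, 3 and 7, and 157th, 34th and 25th in innervated limbs.

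In flank wounds SLIT2 was 0.50 ± 0.301 above uninjured flank at day 1, with a 95% interval from -0.12 to 1.11, which was not called (limma, adjusted p = 0.192) while 41.3% of probe sets were. It was higher by 1.12 at day 3 (adjusted p = 0.00447, 27.4% called) and by 1.97 at day 7 (adjusted p = 2.92e-06, 23.7% called). At day 7 all 4 wound arrays were above all 4 uninjured arrays, and at day 3 they were not. The day 3 call rests on uninjured flank replicate 1, the array at 5.06. Without that array the difference was 0.70 (adjusted p = 0.0575). The SE of 0.301 shares the spread of all groups, and the flank groups varied more than the limb groups. With the arrays of these 2 groups alone the SE was 0.438 and the adjusted p was 0.0991. The day 1 difference was 0.76 (adjusted p = 0.049) without uninjured flank replicate 3, 0.82 (adjusted p = 0.0254) without flank day 1 replicate 4 and 0.08 without uninjured flank replicate 1. SLIT2 stood 2376th, 535th and 236th among rises in the flank on days 1, 3 and 7.

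Most of the limb rise was in place by day 3. SLIT2 was higher at day 3 than at day 1 by 1.71 ± 0.301 in denervated limbs (limma, adjusted p = 2.65e-05, 27.3% of probe sets called) and by 1.43 ± 0.301 in innervated limbs (adjusted p = 0.000362, 26.3% called). From day 3 to day 7 the difference was 0.12 in denervated limbs (adjusted p = 0.902, 6.49% called, and -0.0058 without day 3 replicate 1) and 0.49 in innervated limbs (95% interval -0.12 to 1.10, adjusted p = 0.548, 3.51% called). In the flank the day 3 over day 1 difference was 0.62 (adjusted p = 0.135, 26.2% called) and the day 7 over day 3 difference was 0.86 (adjusted p = 0.057, 12.5% called). Neither flank step was called, but both passed when single flank arrays were left out. The earlier step was then 0.89 (adjusted p = 0.0315, without day 3 replicate 1). The later step was 1.05 (adjusted p = 0.0297, without day 3 replicate 4) or 1.06 (adjusted p = 0.0228, without day 7 replicate 3). It also passed with the muscle list described below as a covariate (0.93, adjusted p = 0.0289), and was 0.35 with the fibroblast list as one (adjusted p = 0.568).

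**Figure D2:**
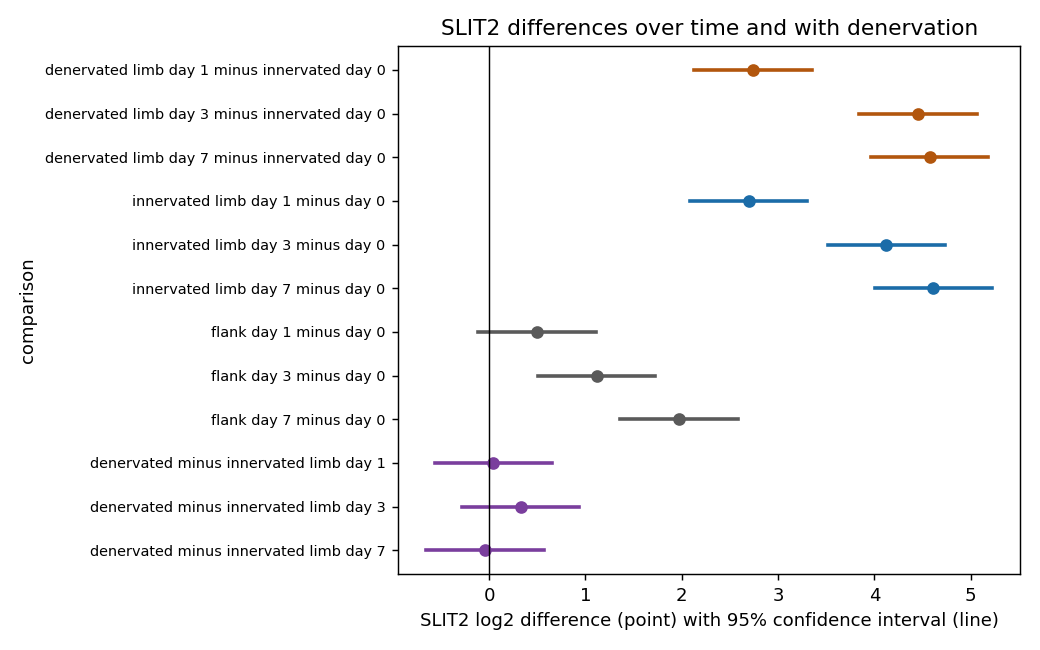
SLIT2 log2 differences (horizontal axis) with 95% confidence intervals from limma, for denervated limb, innervated limb and flank against day 0 and for denervated against innervated limb. The 6 limb intervals lie above 2, the flank intervals move up from day 1 to day 7, and the 3 intervals of denervated against innervated limb span 0.

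Cutting the brachial nerves gave no called difference in SLIT2. Denervated minus innervated, the level differed by 0.05 (95% interval -0.57 to 0.66, limma adjusted p = 0.991) at day 1, when 0.02% of all probe sets were called. At day 3 the difference was 0.33 (95% interval -0.28 to 0.94, adjusted p = 0.933, 0.265% called). At day 7 it was -0.04 (95% interval -0.65 to 0.57, adjusted p = 0.99, 1.7% called). The SLIT2 values of the groups overlapped on each of the 3 days. The day 1 difference was -0.09 without innervated day 1 replicate 1 and -0.04 without denervated day 1 replicate 4. The widest bound of the 3 intervals was 0.94, and they do not show that the levels were equal. Their width comes from a spread estimated over all 11 groups, with the more variable flank groups among them. They are therefore not intervals of the limb groups alone, whose day 7 SDs were 0.0936 (denervated) and 0.132 (innervated).

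Limb against flank is the contrast behind the choice of SLIT2, and its values are a description. On days 1, 3 and 7 the injuries also differed, amputation in limbs and a biopsy punch in the flank. Site and kind of injury therefore cannot be told apart on those days, for SLIT2 or any other gene. In uninjured skin the limb mean was lower than the flank mean by 0.95, and the flank array of 5.06 lay below every limb array, so the groups overlapped. At day 1 the denervated limb mean was higher than the flank mean by 1.30 and the innervated by 1.25. At day 3 the denervated limb was 2.39 higher, or 5.23-fold, and the innervated limb 2.06 higher, or 4.17-fold. At day 7 the differences were 1.65 (3.14-fold) for denervated and 1.69 (3.23-fold) for innervated limbs. On days 1, 3 and 7 no limb array overlapped with a flank array, and the widest day was day 3.

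Among all 20035 probe sets, these limb minus flank differences ranked 182nd and 295th from the top for denervated and innervated limbs at day 1. At day 3 they ranked 26th and 39th, and at day 7 they ranked 55th and 59th. The share of all probe sets called in these comparisons was 2.33% and 4.93% for denervated and innervated limbs at day 1, 6.33% and 6.24% at day 3, and 7.2% and 9.32% at day 7, and it was 4.35% in uninjured skin. In uninjured skin SLIT2 stood at the other end of the list, 309th from the lowest.

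Dermal and muscle markers varied between arrays. The fibroblast order of arrays matched that of SLIT2 in uninjured flank and in no other group. Each list was summarised as the mean deviation of its measured genes from their averages over the 44 arrays, for 18 of 20 dermal fibroblast genes and 15 of 20 skeletal muscle genes. In uninjured flank replicates 1 to 4 the fibroblast list stood at -0.74, 0.67, 1.47 and 1.12, and SLIT2, at 5.06, 6.42, 7.10 and 6.68, had the same order of arrays. The muscle list on these arrays was 0.28, 2.47, 3.10 and 4.10, with replicates 3 and 4 in the other order. In uninjured skin the fibroblast list averaged 0.63 in flank and -0.06 in limb, and the muscle list 2.49 and -0.21. Of the 18 and 15 genes, 3 and 3 were called lower in uninjured limb and 0 higher. Recomputed under 8 settings, among them each list as a covariate, the SLIT2 difference of uninjured limb from flank ran from -1.12 to -0.69. In flank wounds of day 3 the fibroblast list stood at -0.70, -0.68, -1.13 and -0.81. SLIT2 there, at 6.62, 7.58, 7.50 and 8.02, had a different order of arrays. The part of either cell type in the spread of SLIT2 within groups was not tested. In a bulk sample, fewer cells of a type cannot be told apart from less RNA of a gene per cell.

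At day 1 the fibroblast list ranged from -1.09 to 1.46 in innervated limbs and from -1.45 to -0.77 in flank wounds, and 12 of its 18 genes were called higher in innervated limbs than in flank wounds, beside 2.57% of all probe sets. In denervated limbs at day 1 it ranged from -0.24 to 0.17, and 2 of the 18 were called higher than in the flank, beside 0.998% of all. The fibroblast list was also used as a covariate, a setting chosen after the data were seen. The innervated limb then exceeded the flank in SLIT2 by 0.64 at day 1 instead of 1.25. For the denervated limb the day 1 difference was 0.87 instead of 1.30. With the same covariate the day 1 flank difference from uninjured flank was 1.18 (limma, adjusted p = 0.00583) instead of 0.50, and that of day 3 was 1.67 (adjusted p = 0.000104) instead of 1.12. At day 3, the day of the widest SLIT2 difference, the fibroblast list ranged from -0.31 to 0.48 in denervated and from -0.44 to 0.54 in innervated limbs, and from -1.13 to -0.68 in flank wounds, with no overlap between limb and flank. Of its 18 genes, 3 were called higher and 1 lower in denervated limbs than in the flank at day 3, and 5 higher and 0 lower in innervated limbs, beside 3.59% and 3.84% of all probe sets called higher. With the covariate the day 3 SLIT2 difference from the flank was 2.06 in denervated and 1.68 in innervated limbs, instead of 2.39 and 2.06. At day 7 none of the 18 genes was called between either limb series and the flank, beside 7.2% and 9.32% of all probe sets for denervated and innervated limbs. With the covariate the SLIT2 differences of day 7 were 1.73 and 1.86, instead of 1.65 and 1.69.

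Muscle markers were higher in limbs at day 1 than in uninjured limb. Of the 15 muscle genes, 7 were called higher in denervated limbs and 8 in innervated limbs, and 0 lower. Over all probe sets 14.1% and 14.7% were called higher in these comparisons, and 20.1% and 21.2% lower. Against flank wounds of day 1, 0 of the 15 were called higher in denervated and 1 in innervated limbs, and 0 lower. The shares of all probe sets called higher there were 0.998% and 2.57%. The median differences of the 15 genes in these comparisons were 1.60 and 1.43, so the few calls do not show like muscle content. On day 1 arrays the muscle list ranged from 0.91 to 3.27 in denervated limbs, from -0.51 to 4.67 in innervated limbs and from -0.14 to 2.08 in flank wounds. At day 7, when mean SLIT2 was highest, the muscle list stood between -2.46 and -2.26 in denervated limbs and between -2.36 and -2.29 in innervated limbs, against -1.28 to -0.46 in flank wounds. The arrays with the most muscle signal were innervated limb day 1 replicate 4 (4.67), denervated limb day 3 replicate 3 (4.11) and uninjured flank replicate 4 (4.10). Their SLIT2 levels of 8.23, 9.93 and 6.68 were within the range of the other arrays of their groups. Leaving these 3 arrays out, a setting chosen after seeing the data, changed none of the SLIT2 calls. The part of muscle RNA in the SLIT2 values was not tested otherwise than by this setting and by the muscle list as a covariate.

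**Figure D3:**
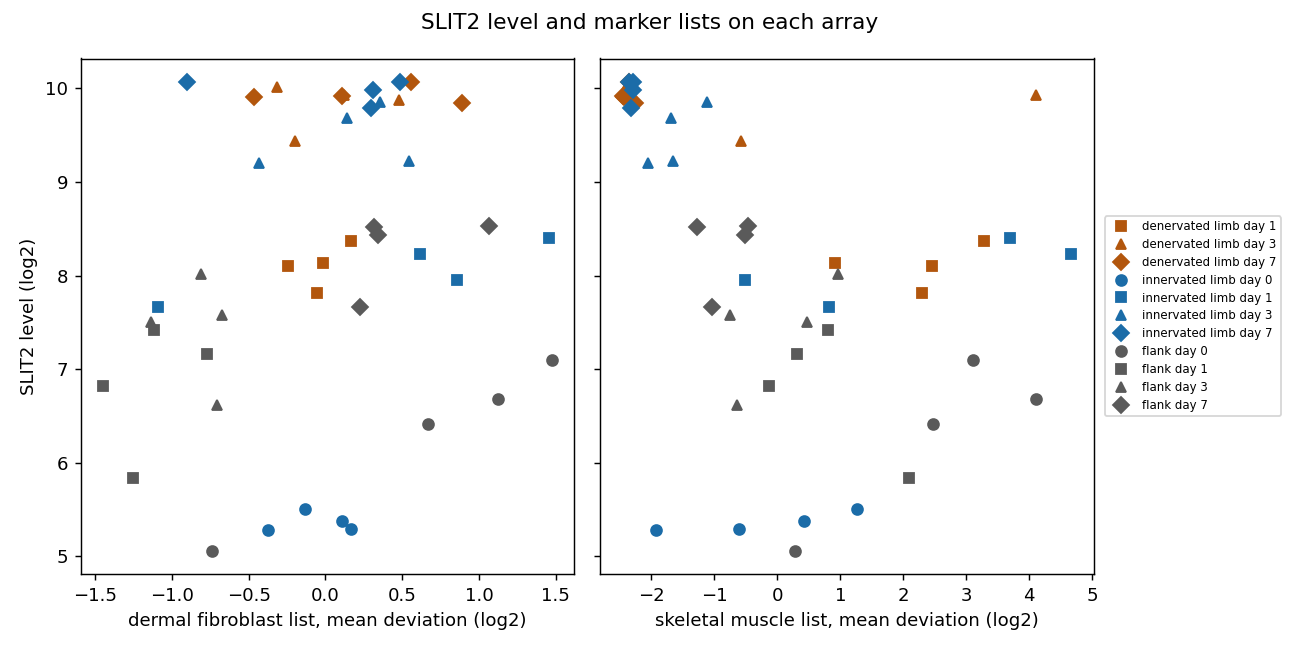
SLIT2 level (log2, vertical axis) against the mean deviation of the dermal fibroblast list (left) and the skeletal muscle list (right) on each of the 44 arrays, coloured by series and shaped by day. The 8 limb arrays of day 7 have SLIT2 levels of 9.79 to 10.07 at muscle values near the bottom of the range. In uninjured flank SLIT2 goes up with the fibroblast list from 5.06 to 7.10. No other group has the same order of arrays for both.

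The other Slit ligands were measured by 1 probe set each and stayed dim. SLIT1, a ligand known mainly from the nervous system, had group means between 4.85 and 5.14, and SLIT3, a ligand of vessels and connective tissue, between 3.63 and 3.89. Each was called higher at day 1 than at day 0 in the flank, SLIT1 by 0.30 ± 0.115 (limma, adjusted p = 0.0382) and SLIT3 by 0.24 ± 0.0926 (adjusted p = 0.0335). SLIT3 was also lower by 0.26 at day 3 than at day 1 in denervated limbs (adjusted p = 0.0344). The flank day 1 calls of both genes were lost under quantile normalization, where the adjusted p was 0.112 for SLIT1 and 0.16 for SLIT3. Leaving out any 1 of 5 of the 8 arrays also ended each call, for example uninjured flank replicate 4, without which the differences were 0.23 and 0.19. No comparison of limb with flank or of denervated with innervated limb called either gene.

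ROBO1, the receptor best known for binding Slit ligands, changed in 1 of its 3 probe sets. The brightest, axo06840-f_at, had levels of 6.57, 6.54, 6.67 and 6.57 in denervated limbs at day 1, then 9.47, 9.11, 9.33 and 9.18 at day 3, and 9.59, 8.63, 8.74 and 8.27 at day 7. In innervated limbs it read 5.40, 5.06, 5.46 and 5.60 when uninjured, 5.96, 7.39, 7.78 and 7.52 at day 1, 9.55, 9.61, 9.15 and 9.01 at day 3, and 8.55, 7.98, 8.55 and 8.99 at day 7. In the flank it read 4.16, 5.53, 6.52 and 6.12 when uninjured, 6.06, 6.01, 5.88 and 5.37 at day 1, 6.18, 6.87, 6.46 and 6.43 at day 3, and 8.63, 7.74, 6.89 and 7.53 at day 7. The limb arrays of day 3 were all above the flank arrays of day 3, and by day 7 the limb and flank values overlapped. The uninjured flank arrays stood in the same order for ROBO1 as for SLIT2 and the fibroblast list.

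The mean ROBO1 level was highest at day 3 in both limb series and at day 7 in the flank. The limb means of day 7 were below those of day 3 by differences that were not called, -0.47 in denervated (limma, adjusted p = 0.568) and -0.81 in innervated limbs (adjusted p = 0.291). Over uninjured limb, it was higher by 1.21, 3.89 and 3.43 in denervated limbs on days 1, 3 and 7 (limma, adjusted p = 0.00754, 6.37e-11 and 8.95e-10), and by 1.78, 3.95 and 3.14 in innervated limbs (adjusted p = 0.000115, 5.97e-11 and 7.97e-09), each with an SE of 0.36. In the flank the day 7 difference of 2.12 was called (adjusted p = 1.72e-05), and the differences of 0.25 at day 1 (adjusted p = 0.614) and 0.90 at day 3 (adjusted p = 0.059) were not. With the fibroblast list as a covariate these were 1.53 (adjusted p = 6.82e-05) and 1.96 (adjusted p = 1.01e-06). Without uninjured flank replicate 3 or 4 the day 3 difference was 1.22 (adjusted p = 0.0126) or 1.08 (adjusted p = 0.0378). The day 1 call in denervated limbs was lost with the muscle list as a covariate (0.94, adjusted p = 0.0551). Denervated and innervated limbs gave no call for ROBO1, with differences of -0.58, -0.06 and 0.29 on days 1, 3 and 7 (limma, adjusted p = 0.747, 0.992 and 0.871).

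Limb against flank could be tested for ROBO1, although it was singled out here with its likeness to SLIT2 known. At day 3 it was higher by 2.79 in denervated limbs (limma, adjusted p = 1.63e-06) and by 2.85 in innervated limbs (adjusted p = 1.15e-06) than in flank wounds. At day 1 the innervated limb was called higher by 1.33 (adjusted p = 0.0235). With the fibroblast list as a covariate this day 1 difference was 0.17 (adjusted p = 0.844), and it also lost its call without innervated day 1 replicate 2, 3 or 4 or flank day 1 replicate 4. At day 7 the differences of 1.11 for denervated (adjusted p = 0.0532) and 0.82 for innervated limbs (adjusted p = 0.17) were not called. The day 7 denervated difference passed without flank day 7 replicate 1 (1.42, adjusted p = 0.0149) or denervated day 7 replicate 4 (1.29, adjusted p = 0.0393). It also passed under 6 other settings, with the lowest adjusted p, 0.000319, for the fibroblast covariate. With that covariate the innervated difference of day 7 was 1.14 (adjusted p = 0.00121).

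The other ROBO1 probe sets, axo20659-f_at and axo00646-f_at, disagreed with the brightest. Their group means lay between 4.39 and 4.69 and between 4.00 and 4.39, and neither was called in any of the 25 comparisons. The ROBO1 values above therefore belong to axo06840-f_at alone. ROBO2, a receptor of the same family, had group means between 4.10 and 4.34, and ROBO4, a receptor of endothelial cells, between 3.50 and 3.88. Neither was called in any comparison, and no probe set was named ROBO3.

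**Figure D4:**
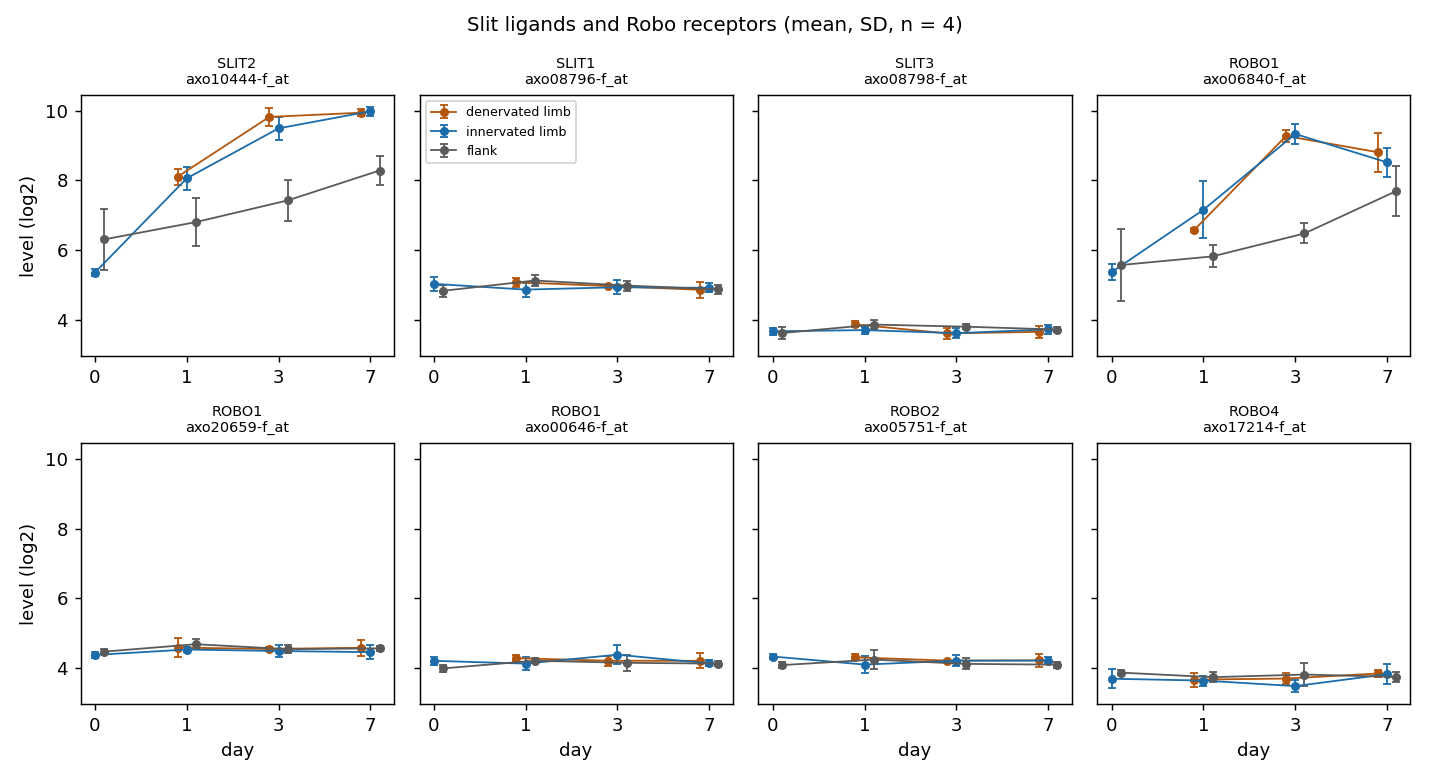
Group means with SD (log2, n = 4) by day for the Slit ligands and Robo receptors, 1 panel per probe set, with denervated limb, innervated limb and flank in colour. The means of SLIT2 and of the axo06840-f_at probe set of ROBO1 lie above day 0 in all 3 series after injury. They are higher in limbs than in flank on days 1, 3 and 7 but not at day 0. The ROBO1 limb means are highest at day 3. The group means of the other 6 panels stay between 3.50 and 5.14.

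Some of the genes whose proteins bind Slit or build heparan sulfate rose in all 3 series. Of 12 measured genes of 13, 7, 6 and 6 were called higher in denervated limbs on days 1, 3 and 7, the same numbers in innervated limbs, and 6, 6 and 7 in flank wounds, where 1 was also called lower at day 7. Higher calls made up 14.1%, 12.4% and 13.1% of all probe sets in denervated limbs on those days, 14.7%, 12.5% and 12.8% in innervated limbs, and 20%, 12.6% and 11.5% in the flank. SDC2, a cell surface heparan sulfate proteoglycan, averaged 11.7 in denervated and 11.6 in innervated limbs at day 3, against 8.86 in uninjured limb, and 10.9 in flank wounds of day 3, against 8.81 in uninjured flank. Its rise at day 3 was 2.85 ± 0.135 in denervated limbs (limma, adjusted p = 1.61e-18), 2.77 in innervated limbs (adjusted p = 4.42e-18) and 2.10 in the flank (adjusted p = 9.43e-15). SDC1, an epithelial syndecan, rose by 1.51, 1.54 and 1.06 at the same day. DAG1, dystroglycan, which binds Slit in mice, rose by 1.27 and 1.37 in denervated and innervated limbs. SDC2 and SDC1 were bright in uninjured skin, and in the flank both were higher at day 1 already, by 2.65 (adjusted p = 6.78e-18) and 1.62 (adjusted p = 1.92e-15). An early rise was not particular to the flank. The median day 1 difference of the 12 genes was 0.67 in denervated limbs, 0.77 in innervated limbs and 0.28 in the flank.

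Some Slit binding genes also differed between limb and flank. At day 3 SDC2 was higher than in the flank by 0.80 in denervated (limma, adjusted p = 0.000137) and by 0.71 in innervated limbs (adjusted p = 0.000572). DAG1 was higher by 0.77 (adjusted p = 0.00242) and 0.86 (adjusted p = 0.000575) in the same comparisons. GPC1, glypican 1, a heparan sulfate proteoglycan that binds Slit, went the other way at day 7, at -1.15 ± 0.177 in denervated (adjusted p = 2.66e-05) and -1.33 ± 0.177 in innervated limbs (adjusted p = 2.5e-06). EXT1, an enzyme that extends heparan sulfate chains, was the only one of the 83 other measured guidance genes called between denervated and innervated limbs at day 3, at -0.46 ± 0.0865 (adjusted p = 0.00553). That call was lost when the 3 arrays with the most muscle signal were left out (-0.43, adjusted p = 0.0584) and with the arrays of the 2 groups alone (adjusted p = 0.149).

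Genes that act downstream of Robo were called in both directions, and each count is of few genes. Of 20 measured genes of 23, 5 were called higher and 5 lower in denervated limbs at day 1, 4 and 4 in innervated limbs, and 7 and 4 in the flank. At day 3 the higher and lower counts were 3 and 0, 4 and 2, and 3 and 1, and at day 7 they were 6 and 1, 4 and 2, and 6 and 1. In denervated limbs, innervated limbs and flank, higher calls made up 25%, 20% and 35% of the 20 at day 1. Over all probe sets they made up 14.1%, 14.7% and 20%. The day 3 shares were 15%, 20% and 15%, beside 12.4%, 12.5% and 12.6% of all. The day 7 shares were 30%, 20% and 30%, beside 13.1%, 12.8% and 11.5%. Lower calls at day 1 were 25%, 20% and 20% of the 20, beside 20.1%, 21.2% and 21.3% of all probe sets. For day 3 they were 0%, 10% and 5%, beside 14.1%, 13.4% and 14.8%. For day 7 they were 5%, 10% and 5%, beside 13.9%, 13.8% and 12.2%. NCK1, an adaptor that links Robo to actin regulators, had the smallest adjusted p of the effectors for limb against flank at days 3 and 7. It was higher than in the flank at day 3 by 0.79 ± 0.101 in denervated (limma, adjusted p = 1.58e-06) and 0.81 in innervated limbs (adjusted p = 9.31e-07), and at day 7 by 0.60 (adjusted p = 8.71e-05) and 0.83 (adjusted p = 5.01e-07). MYO9B, an unconventional myosin, rose in all 3 series, by 1.06, 1.11 and 0.88 at day 3 in denervated limbs, innervated limbs and flank.

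Across the 83 measured guidance genes other than SLIT2, the share called over day 0 lay between 24.1% and 43.4%. At day 1 it was 33.7% in denervated limbs, 36.1% in innervated limbs and 43.4% in the flank, beside 34.2%, 36% and 41.3% of all probe sets. At day 3 it was 24.1%, 26.5% and 25.3%, beside 26.4%, 25.9% and 27.4%, and at day 7 it was 31.3%, 28.9% and 31.3%, beside 27%, 26.6% and 23.7%. Higher calls outnumbered lower ones, with 24 higher and 2 lower in denervated limbs at day 7, 21 and 3 in innervated limbs, and 22 and 4 in the flank. As shares of the 83 these were 28.9% and 2.41%, 25.3% and 3.61%, and 26.5% and 4.82%. Over all probe sets, higher and lower calls at day 7 made up 13.1% and 13.9%, 12.8% and 13.8%, and 11.5% and 12.2%. The 83 are named genes at their brightest probe set, whereas all probe sets include unnamed and dimmer ones. The shares are therefore of unlike sets, and their difference cannot be read as a trait of guidance genes. Against the flank, 8 were called higher and 2 lower in denervated limbs at day 3, and 9 and 2 in innervated limbs. That is 12% and 13.3% of the 83, beside 6.33% and 6.24% of all probe sets. Of all probe sets 3.59% and 3.84% were higher and 2.74% and 2.4% lower. In uninjured skin 0 of the 83 were higher and 3 lower in limb (3.61%, beside 4.35% of all). At day 1 the counts were 0 and 3 in denervated and 4 and 3 in innervated limbs (3.61% and 8.43%, beside 2.33% and 4.93%). At day 7 they were 7 and 2, and 7 and 5 (10.8% and 14.5%, beside 7.2% and 9.32%). Between denervated and innervated limbs 0, 1 and 1 of the 83 were called on days 1, 3 and 7, beside 0.02%, 0.265% and 1.7% of all probe sets.

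The other guidance families were not uniform. SEMA6A, a transmembrane semaphorin, ran most like SLIT2 among them and rose by 3.26 ± 0.216 in denervated limbs (limma, adjusted p = 1.01e-14), 3.19 in innervated limbs (adjusted p = 2.34e-14) and 2.70 in the flank (adjusted p = 2.02e-12) at day 7. At day 3 it exceeded the flank by 1.13 in denervated limbs (adjusted p = 0.000692). The 0.80 of innervated limbs (adjusted p = 0.019) became 0.55 (adjusted p = 0.138) without flank day 3 replicate 1. It also lost its call without flank day 3 replicate 4 or innervated day 3 replicate 3. SEMA6A was singled out with its likeness to SLIT2 known, so its limb against flank tests are not independent of the choice of SLIT2.

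Among the ephrins and their receptors, EPHA7, an Eph receptor, was lower in limb than in flank wherever it was called between them. In denervated limbs the difference from the flank was -1.32 ± 0.305 at day 1 (limma, adjusted p = 0.0121), and it was not called at day 3 (-0.28, adjusted p = 0.691) or day 7 (-0.76, adjusted p = 0.144). In innervated limbs the differences were -1.25 at day 1 (adjusted p = 0.0113), -1.41 at day 3 (adjusted p = 0.0026) and -1.83 at day 7 (adjusted p = 7.67e-05). PLXND1, a plexin that receives semaphorin signals, was higher by 0.86 in denervated than in innervated limbs at day 7 (adjusted p = 0.0309). The adjusted p of that difference was over 0.05 without any 1 of 6 of the 8 arrays, up to 0.132 without innervated day 7 replicate 1. Of the 8 measured netrin pathway genes of 16, at most 2, or 25%, were called in a comparison with day 0, beside 23.7% to 41.3% of all probe sets in those comparisons.

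The genes whose levels ran most like SLIT2 were found by Pearson's r over the 44 arrays, among 8638 other named genes with 1 probe set each. The arrays share the time course and the sites, so r is a description and has no p. FZD2, a Wnt receptor, had the highest r (0.931), and ROBO1 was next (0.925). LAMB1, a laminin chain of basement membranes, had 0.923, FKBP1B, a binding protein of calcium release channels, 0.914, and MMP14, a membrane-bound matrix protease, 0.912. PAG1, a membrane adaptor of Src family kinases, had 0.912, RFTN2, a lipid raft protein, 0.908, and SALL4, a zinc finger factor of stem and limb bud cells, 0.902. These 8 were the only genes at or above 0.9, and 79 were at or above 0.8.

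Within the 28 limb arrays the r of these 8 genes lay between 0.903 (ROBO1) and 0.972 (FZD2), and within the 16 flank arrays between 0.684 (FKBP1B) and 0.920 (ROBO1). ROBO1 was thus lowest of the 8 in the limb and highest in the flank. SALL4 averaged 10.6 in denervated and 10.5 in innervated limbs at day 7, against 9.49 in the flank, while uninjured limb and flank stood at 3.88 and 4.13. FZD2 at day 7 averaged 9.90 in denervated and 9.95 in innervated limbs, against 8.70 in the flank. The genes that ran most opposite to SLIT2 were OXCT1, a mitochondrial enzyme that uses ketone bodies (r = -0.912), SH3GL2, an endocytosis protein (-0.897), BAIAP2L1, an actin regulator of epithelia (-0.897), and GYG1, which primes glycogen synthesis (-0.885).

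**Figure D5:**
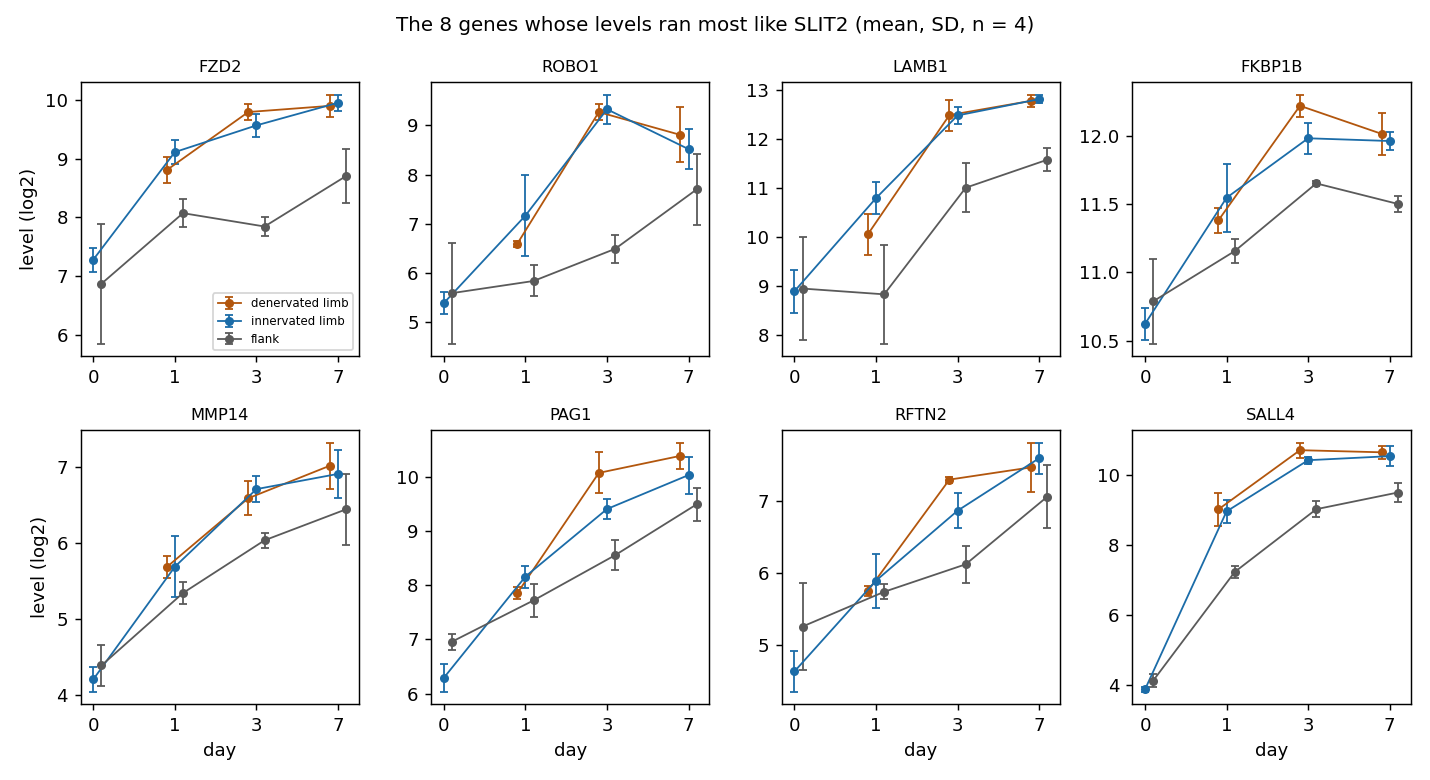
Group means with SD (log2, n = 4) by day of the 8 genes with the highest Pearson correlation to SLIT2 over 44 arrays, with denervated limb, innervated limb and flank in colour and a level axis for each gene. The genes were chosen for running like SLIT2 over these arrays, so their likeness to it is no finding, and the day 7 values of ROBO1 overlap between limb and flank.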

How the data were processed

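Affymetrix arrays made for this species were read from the table of values deposited by the authors. The deposited values are log2 levels with 2 decimals, between 2.41 and 15.04, with array medians between 5.61 and 5.73. RMA and limma are named, with no role or version, per the submitters' processing notes. No scan or hybridisation batch is given, so none was examined. Probe sets were named from the platform annotation, which gave 1 symbol to 10951 of 20080 and left 9084 unnamed. The 45 control probe sets were left out. A gene with several probe sets was represented by the one with the highest mean. Shares over all probe sets include unnamed and dimmer probe sets, so they are not matched to the gene lists. Of the guidance genes described, NCK1, EXT1, SEMA6A and EPHA7 have 2 probe sets each and MYO9B has 3. Their values above belong to the brightest probe set alone.

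limma 3.58.1 in R 4.3.3 was fitted with 1 mean per group over 44 arrays (33 residual degrees of freedom), with two-sided tests and Benjamini-Hochberg adjustment over 20035 probe sets. Precision is limited by the number of arrays (median SE of a difference 0.123). The fit was tested on simulated data with known changes and with the same SD of a probe set in every group. That simulation cannot check the fit where the spread differs between groups, as it did for SLIT2. SLIT2, the gene lists and the comparisons were chosen with earlier results of these data known. All Slit ligands and Robo receptors were named, then in each comparison up to 4 called genes of each guidance list with the smallest adjusted p, the 8 genes most like and 4 most unlike SLIT2, and the brightest markers. EMX2, DLX6 and the subset of eligible genes described were picked after their values were seen. Replicate numbers were not used as pairs, because pairing was accepted only if every same-numbered pair had deviations correlated over 0.1, and 61 of 220 did. A rule that every pair must meet is strict, so it does not show that the arrays were unpaired.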

Additional observations from a re-analysis of the deposited data

Results flagged for a closer look

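Dixon's criterion was applied to each of the 88 sets of 4 arrays formed by a Slit or Robo probe set in a group, with its 95% critical value for 4 samples. Chance gives about 1 in 20 such sets, and 3 were found. SLIT2 in flank day 7 replicate 3 was 7.66, below the 8.43 to 8.53 of the other 3 arrays, with a gap of 0.885 of the range. The same array had the highest level of the ROBO1 probe set axo00646-f_at, 4.25 against 4.09 to 4.11 in the others (0.875 of the range). ROBO4 in denervated day 1 replicate 1 was 3.38, below 3.76 to 3.82 in the others (0.864 of the range).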

How the results depend on the processing

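The 18 tested and 7 untested SLIT2 differences were recomputed under the planned and added settings, which gave 436 values. Of these, 421 kept direction and side of the threshold (or, untested, moved by less than the spread) and 15 did not. In 3 of the 15 an uncalled difference changed sign with an array left out. These were denervated minus innervated limb at day 1, between -0.088 and 0.16, and denervated day 7 minus day 3, between -0.0058 and 0.19. The flank day 7 minus day 3 difference passed without the dimmest 25% of probe sets (0.86, limma adjusted p = 0.0455), with array weights (0.96, adjusted p = 0.00511) and with the muscle list as a covariate (0.93, adjusted p = 0.0289), and ranged from 0.58 to 1.06 with single arrays left out. Flank day 3 minus day 0 did not pass with the 2 groups alone (1.12, adjusted p = 0.0991) and ranged from 0.70 to 1.39 with single arrays left out. Flank day 1 minus day 0 passed with the fibroblast list as a covariate, a setting chosen after seeing the data (1.18, adjusted p = 0.00583), and ranged from 0.077 to 0.82 with single arrays left out. Flank day 3 minus day 1 ranged from 0.30 to 0.89. The day 1 difference of innervated limb from flank was 0.64 with the fibroblast covariate. With the replicate block no SLIT2 call changed, and at day 7 it called 5551 probe sets against 5404 without it in denervated limbs, 5462 against 5336 in innervated limbs, 4882 against 4749 in the flank and 379 against 340 between denervated and innervated limbs. Same-numbered arrays had a median correlation of 0.04, against -0.012 for differently numbered ones. Of 44 arrays, 21 correlated best with their own number, more than an even spread over the replicate numbers would give. For the other named genes 170 of 8021 recomputed values lost a call, 84 gained one, 286 uncalled ones changed sign or came to 0, and 0 called ones reversed. Of 304 recomputed counts of guidance genes, 24 moved by more than 1.5 times. SLIT2 has 1 probe set, so the alternative of another probe set could not be run. Causes were not tested beyond these settings.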

Other observations

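In the RefSeq annotation UKY_AmexF1_1, used here for gene order only, the nearest named protein-coding genes on one side of SLIT2 are PACRGL, KCNIP4, ADGRA3 and PPARGC1A, and on the other LCORL, NCAPG, FAM184B and MED28. ADGRA3 had no named probe set. Over the 44 arrays the r with SLIT2 was highest for MED28, a Mediator subunit (0.533), and PACRGL (0.380), and between -0.170 and 0.0188 for the other 5. At day 7 MED28 was 0.63 and PACRGL 0.24 above uninjured limb in innervated limbs, beside the 4.61 of SLIT2.

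The nerve and Schwann cell list, 11 of 16 genes measured, stood highest on innervated limb day 1 replicates 3 and 4, at 0.951 and 0.938. These arrays had the highest SLIT2 levels of their group, 8.40 and 8.23. They also had its highest muscle list values, 3.69 and 4.67, against 0.82 and -0.51 on replicates 1 and 2. On the fibroblast list they stood at 1.46 and 0.61, against -1.09 and 0.86. At day 7, when mean SLIT2 was highest in both limb series, the nerve and Schwann cell list averaged -0.05 in denervated and -0.14 in innervated limbs. Whether nerve and Schwann cells have a part in the SLIT2 level was not tested.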
